A study of Mus musculus with 3 samples.

Results

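Abcb1a, Slc2a1, Mfsd2a, Slco1a4, Slc7a5, Cldn5, Ocln, Tjp1 and Spock2, 9 genes of tight junctions and transport known from the blood-labyrinth barrier, were measured in single cells of the mouse cochlea. They were chosen by name, as 9 of the 32285 genes in the table. The study made 3′ single-cell libraries from C57BL/6J cochleae of a control group without noise, an HHL group (hidden hearing loss) given noise of 110 dB during 2 h, and an NIHL group (noise-induced hearing loss) given 115 dB during 4 h on 3 days. Tissue was collected 6 h later, each group is 1 library labelled with 6 mice, and all groups share the strain; no age is used here. The cells of all groups stand in 1 table whose barcode suffixes 1, 2 and 3 no label ties to a group, so libraries are numbered by suffix, noise exposure was not compared, no test was run, and every interval is a 95% interval for counting error alone. In pooled UMI counts, fewer cells that use a gene and less RNA per cell cannot be told apart.

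The blood-labyrinth barrier separates the blood from the fluids of the cochlea and is best known from the capillaries of the stria vascularis. Like the blood-brain barrier, its endothelium is sealed by tight junctions and moves nutrients and drugs through dedicated carriers and efflux pumps, with little passage through vesicles. Sinusoidal and fenestrated vessels, such as those of bone marrow, are the opposite kind, permeable and rich in scavenger receptors. Stab2 encodes such a scavenger receptor, and Plvap forms the diaphragms of fenestrae and caveolae.

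After filters, 35063 barcodes remained (15674, 9198 and 10191), with median depths of 5119, 6113.5 and 7871 UMIs. Most were blood and marrow cells, and 128 barcode sequences occurred in more than 1 library, none of them endothelial. An endothelial barcode had at least 1 UMI of Cdh5 (VE-cadherin, the endothelial adherens junction protein), a UMI of at least 5 of 9 other pan-endothelial genes and no Ptprc, the pan-leukocyte gene. There were 147, and 107 had a UMI of Stab2 or Plvap (41, 26 and 40). The other 40 (16, 10 and 14), called other endothelium, had neither. Their median depths were 5357.5, 2206.5 and 7249.5 UMIs, against 5588, 5809 and 7930 in the Stab2 or Plvap gate, so the other endothelium of library 2 was both the smallest and the shallowest. All 10 pan-endothelial genes, from which the gate itself was drawn, had UMIs in both gates in every library.

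The number of pan-endothelial genes asked for decides the main count below, and it was raised after the 9 genes' values had been seen. The number set at the start was 2 of 9. With it, the other endothelium held 191 barcodes, and Coch, a gene of cochlear fibrocytes, stood in them at 1942, 4472 and 6885 counts per mega-UMI of the gate (CPM, the unit used throughout), against 35.2, 6.34 and 101 in the Stab2 or Plvap gate. Of the 485 Cdh5 barcodes without Ptprc and with fewer than 5 of the other genes, 68.9% had a Coch UMI, against 11.6% of the 147 endothelial barcodes. Asking for 5 genes rests on this measure, which uses none of the 9 genes, but the choice was made with the 9 genes' values under the gate of 2 genes in view. Results of both gates are therefore given.

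Of the 9 genes, 8 were at least 2-fold higher in other endothelium than in Stab2 or Plvap endothelium in every library, where 3.37% of the 7467 genes with at least 20 summed UMIs were. The exception was Ocln, whose library 2 counts, 3 and 2 UMIs, were too low for a call. Mfsd2a and Ocln reached 20 UMIs only through other endothelium (40 and 24 UMIs, against 3 and 5), so they could pass in 1 direction only, and the Mfsd2a call rests in libraries 2 and 3 on counts of 0 set to the floor. Of the other 7 genes, all 7 passed. None of the 9 was 2-fold higher in the Stab2 or Plvap gate in every library, a mark that 2.81% of the genes reached. With the gate of 2 genes set at the start, only Ocln passed, 1 of 9, where 5.84% of 10793 genes did, and none of the 9 was 2-fold higher in the Stab2 or Plvap gate, where 6.64% of genes were. Under that gate Abcb1a, for example, stood at 263, 88.0 and 231 CPM in other endothelium against 55.8, 117 and 31.8 CPM, Slco1a4 at 529, 140 and 427 CPM against 44.0, 184 and 31.8 CPM, and Spock2 at 454, 193 and 311 CPM against 20.5, 114 and 39.7 CPM. Library 2 thus ran against the others for Abcb1a and Slco1a4 and fell short of 2-fold for Spock2. With 3, 4, 6 and 7 genes required, 3, 7, 8 and 8 of the 9 passed, and with Cdh5 alone 1 passed. Of all genes tested, 460 of 9619, 272 of 8136, 244 of 7417 and 237 of 7312 passed under these gates, and 645 of 13434 with Cdh5 alone. With Stab2 alone as the dividing gene, and barcodes with only Plvap left out, 8 passed, as did 289 of 7022 genes. The median over the 9 genes of the log2 ratio (the median library of each gene) was 4.35, and that over all tested genes was 0. The plot of levels in both endothelial gates shows these values.

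**Figure D1:**
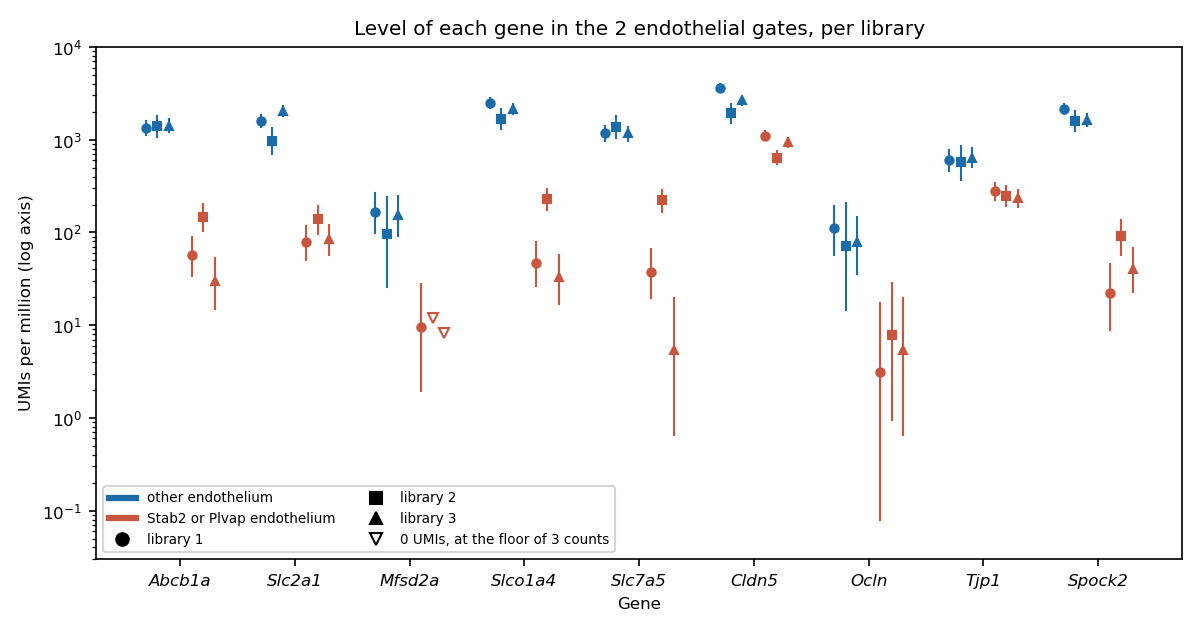
CPM (log axis) of the 9 genes in other endothelium (blue) and Stab2 or Plvap endothelium (red), with 1 point per library and exact Poisson 95% intervals; open triangles are counts of 0 drawn at the floor of 3 counts. For each gene the 3 blue points lie above the 3 red points, with the narrowest distance for Tjp1 (572 to 641 against 234 to 277 CPM) and the lowest counts for Mfsd2a and Ocln.

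Of the junction genes, Cldn5 encodes claudin-5, the main claudin of barrier capillaries. It stood at 3656, 1930 and 2675 CPM in other endothelium and at 1106, 642 and 934 CPM in the Stab2 or Plvap gate. The levels did not overlap, and every library's ratio was near the same size, 3.31 (2.86 to 3.83), 3.01 (2.27 to 3.95) and 2.86 (2.45 to 3.35). Cldn5 was detected in nearly equal shares of barcodes on both sides, in 36 of 40 and in 95 of 107. Under the gate of 2 genes the order turned round, with 691, 113 and 427 CPM in other endothelium against 1051, 596 and 945 CPM.

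Tjp1 encodes ZO-1, the scaffold that ties junction proteins to actin. Its levels were 602, 572 and 641 CPM in other endothelium and 277, 250 and 234 CPM in the Stab2 or Plvap gate. These are ratios of 2.17 (1.55 to 3.02), 2.29 (1.37 to 3.72) and 2.74 (1.98 to 3.78), and the intervals of all 3 libraries reach below 2. TMM scaling and a mean over barcodes each ended the Tjp1 call. Tjp1 too was detected about as often on both sides, in 33 of 40 and 85 of 107 barcodes.

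Ocln encodes occludin, a transmembrane protein of the tight junction. It was sparse, with 12, 3 and 9 UMIs in other endothelium (111, 71.5 and 77.9 CPM) and 1, 2 and 2 UMIs in the Stab2 or Plvap gate (3.15, 7.93 and 5.44 CPM). The direction was the same in each library, but the interval of the ratio in library 2 ran from 1.03 to 108. Ocln was seen in 15 of 40 and 4 of 107 barcodes.

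Among the transporters, Abcb1a encodes P-glycoprotein, the efflux pump that returns drugs to the blood. It stood at 1342, 1406 and 1420 CPM in other endothelium and at 56.7, 147 and 29.9 CPM in the Stab2 or Plvap gate, which are ratios of 23.7 (14.5 to 41.1), 9.58 (6.25 to 14.9) and 47.4 (25.8 to 96.8). Its levels in other endothelium were close, with overlapping intervals, while that in the Stab2 or Plvap gate was highest in library 2. With each barcode thinned to 2000 UMIs, Abcb1a was found in 9 of 12, 5 of 5 and 13 of 13 other endothelial barcodes and in 2 of 38, 3 of 26 and 3 of 40 of the Stab2 or Plvap gate.

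Slc2a1 encodes GLUT1, the glucose carrier of barrier endothelium. Its levels were 1601, 977 and 2051 CPM against 78.8, 139 and 84.4 CPM, with ratios of 20.3 (13.3 to 32.3), 7.04 (4.38 to 11.4) and 24.3 (16.7 to 36.6). Library 2 was low in other endothelium, with an interval of 701 to 1325 CPM below those of libraries 1 and 3, and 5 of its 10 barcodes had a UMI.

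Slco1a4 encodes OATP1A4, an organic anion carrier for drugs and conjugated hormones. It stood at 2499, 1692 and 2147 CPM in other endothelium and at 47.3, 230 and 32.7 CPM in the Stab2 or Plvap gate. The ratios were 52.9 (31.5 to 95.8), 7.36 (5.13 to 10.6) and 65.7 (37.0 to 129), so library 2 again had the smallest.

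Slc7a5 encodes LAT1, the carrier of large neutral amino acids that pairs with the heavy chain Slc3a2. Its levels were 1175, 1382 and 1169 CPM against 37.8, 222 and 5.44 CPM, the last being 2 UMIs in 1 of 40 barcodes. The ratios were 31.1 (17.2 to 61.8), 6.23 (4.24 to 9.15) and 215 (58.3 to 1790), so the order of libraries was that of Abcb1a and Slco1a4. The partner Slc3a2 was at 796, 882 and 1004 CPM in other endothelium and 331, 242 and 248 CPM in the Stab2 or Plvap gate.

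Mfsd2a encodes the carrier of lysolipids bearing docosahexaenoic acid, which is also known for keeping transcytosis low in barrier endothelium. It had 18, 4 and 18 UMIs in other endothelium (167, 95.3 and 156 CPM), against 3, 0 and 0 in the Stab2 or Plvap gate. The ratio in library 1 was 17.6 (5.15 to 93.4). Taking the 0 as 3 counts per library, Mfsd2a was at least 8.01-fold higher in library 2 and at least 19.1-fold higher in library 3. With the counting error of its own 4 and 18 UMIs the lower limits are 3.97 and 14.0. In library 2 the 4 UMIs came from 1 barcode, and 11 of 40 barcodes had any.

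Spock2 encodes testican-2, a secreted proteoglycan. It stood at 2138, 1596 and 1645 CPM in other endothelium and at 22.1, 91.2 and 40.8 CPM in the Stab2 or Plvap gate, which are ratios of 96.9 (46.3 to 244), 17.5 (10.8 to 29.5) and 40.3 (23.8 to 73.4). By its lowest library's ratio Spock2 ranked 7 of the 4353 genes with at least 50 summed UMIs. Abcb1a ranked 21, Slco1a4 27, Slc2a1 29, Slc7a5 34, Cldn5 107 and Tjp1 159.

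**Figure D2:**
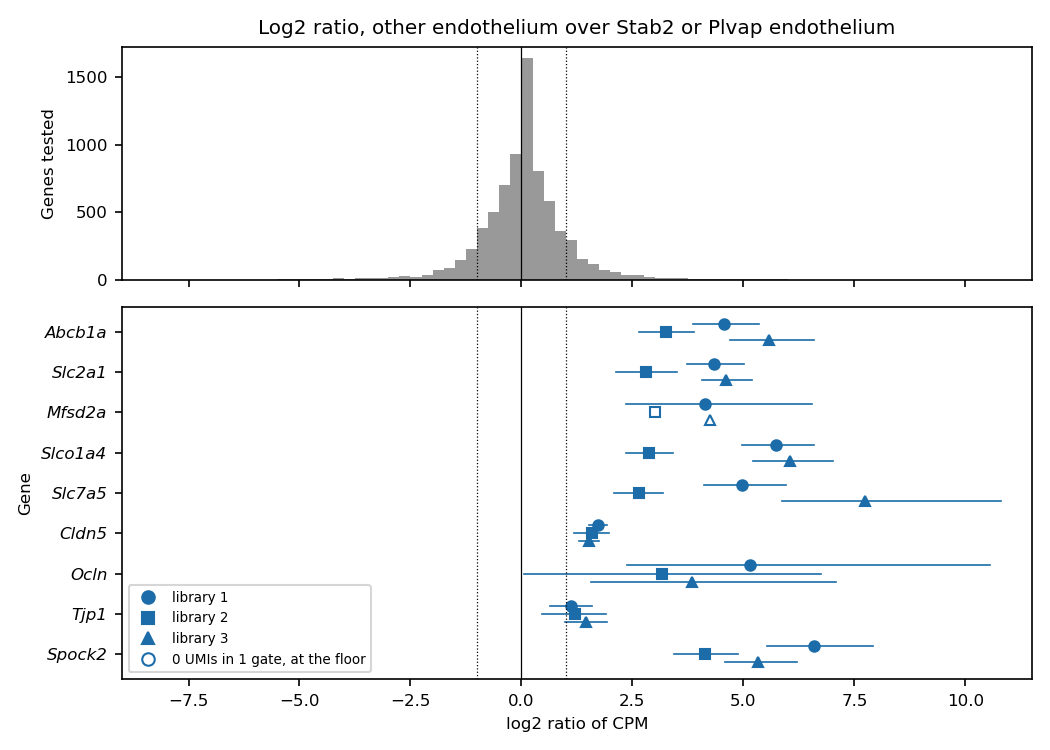
Log2 ratio of CPM, other endothelium over Stab2 or Plvap endothelium: above, the median library of all 7467 genes tested; below, each of the 9 genes in each library with its counting interval, open where a count of 0 was set to the floor. Dotted lines mark 2-fold; all members lie to the right of 0, Cldn5 and Tjp1 nearest to it.

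The higher Stab2 or Plvap levels of library 2 rested on few barcodes. A barcode with 5 Plvap UMIs and no Stab2 held 133 of the 211 UMIs (63.0%) that the 26 barcodes of library 2 had of the 7 genes other than Cldn5 and Tjp1. It had 41 UMIs of Slco1a4, 38 of Slc7a5, 28 of Abcb1a, 13 of Slc2a1 and 11 of Spock2. In libraries 1 and 3 the corresponding barcode held 17 of 81 and 28 of 73 UMIs, also with Plvap and without Stab2.

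Splitting the gate by Stab2 separated these levels further. Over the libraries together, the 78 Stab2 barcodes, the 29 with Plvap only and the 40 with neither had Abcb1a at 18.9 (10.6 to 31.2), 356 (265 to 468) and 1386 (1248 to 1535) CPM. Slco1a4 was at 21.4, 474 and 2218 CPM, Slc2a1 at 35.3, 439 and 1698 CPM, Slc7a5 at 3.78, 467 and 1205 CPM, and Spock2 at 12.6, 244 and 1838 CPM. The pooled levels of these 5 genes were lowest with Stab2 and highest with neither. The class with Plvap only was mixed: 10 of its 29 barcodes had any Abcb1a, 9 any Slco1a4 and 10 any Slc7a5, and the barcode of library 2 described above gave 28 of the 51 Abcb1a, 41 of the 68 Slco1a4 and 38 of the 67 Slc7a5 UMIs. Mfsd2a and Ocln had no UMI in the Stab2 barcodes, where the limit that a count of 0 allows, 3 counts over the class, is 3.78 CPM. With Plvap only and with neither, Ocln was at 34.9 and 90.4 CPM and Mfsd2a at 20.9 and 151 CPM. Both thus had the order of the 5 genes, from only 5 and 3 UMIs with Plvap only. The junction genes Cldn5 and Tjp1 kept another order, Cldn5 at 969, 607 and 2956 CPM and Tjp1 at 252, 258 and 614 CPM.

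**Figure D3:**
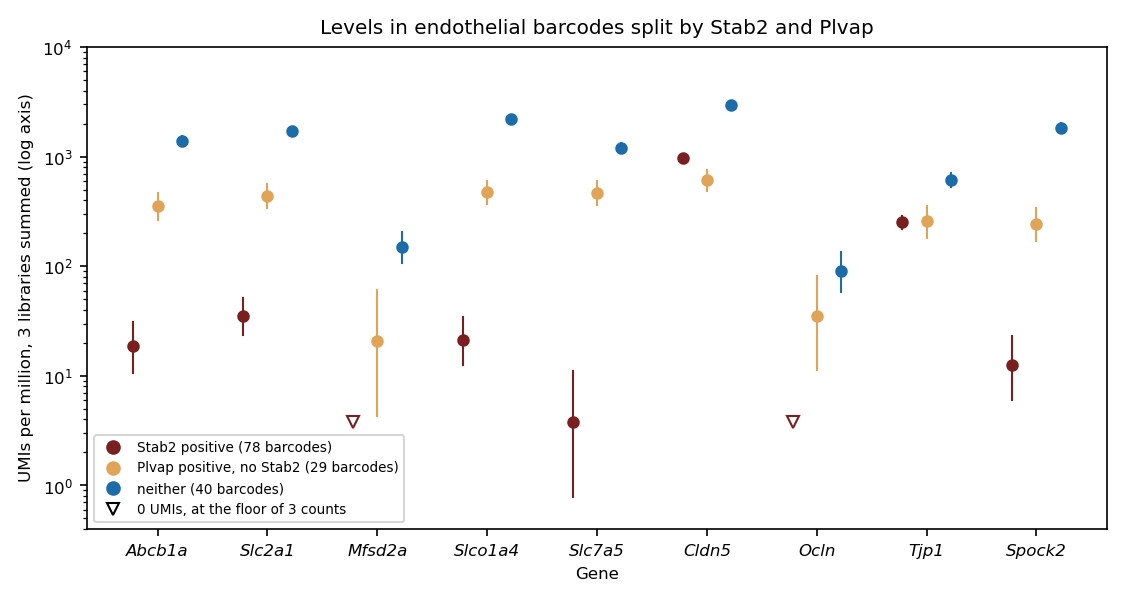
CPM (log axis), 3 libraries summed, of the 9 genes in endothelial barcodes with Stab2 (78), with Plvap and no Stab2 (29) and with neither (40), with exact Poisson 95% intervals; open triangles are counts of 0 at the floor of 3 counts. For Abcb1a, Slc2a1, Slco1a4, Slc7a5 and Spock2 the pooled Plvap only level lies between the others, from UMIs in 9 or 10 of 29 barcodes, whereas Tjp1 is equal in the first 2 classes and Cldn5 is lowest with Plvap only.

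Several of the 9 genes were found in most other endothelial barcodes. Other endothelial barcodes had a median of 7, 5.5 and 7.5 of the 9 genes with a UMI, and 13 of 16, 9 of 10 and 13 of 14 had at least 4. In the Stab2 or Plvap gate the median was 2, 3 and 2.5, and 10 of 41, 5 of 26 and 5 of 40 had at least 4. Of the 40 other endothelial barcodes, 30 had both Abcb1a (34) and Slc2a1 (31), and 29 both Slco1a4 (31) and Slc7a5 (32). Cldn5 (36) and Tjp1 (33) were both in 32, and Slco1a4 and Tjp1 in 26. Genes detected this widely overlap in many barcodes whatever their relation, and joint detection beyond these shares was not tested. Mfsd2a was in 11 and Ocln in 15 of the 40. All 11 barcodes with Mfsd2a also had Abcb1a, Cldn5 and Spock2. Depth differs between barcodes and enters every such count.

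Marker genes of other cell types were present in both gates, and several lists moved with the split. Of the 7 fibrocyte or strial basal cell genes 2, 3 and 3 had a UMI in other endothelium, with a summed level of 83.3, 858 and 60.6 CPM, against 3, 5 and 4 genes and 334, 250 and 199 CPM in the Stab2 or Plvap gate; of them Cldn11 and Otos were at 0 in other endothelium in every library. The 6 melanocyte genes were at 0 there in every library. The 7 pericyte genes went both ways: 7, 7 and 5 were seen in other endothelium, with sums of 824, 4884 and 208 CPM, and 7, 6 and 5 in the Stab2 or Plvap gate, with 1370, 1134 and 1086 CPM. Rgs5 was 2-fold higher in other endothelium in every library, at 500, 4169 and 147 CPM against 214, 31.7 and 2.72 CPM, from 2 of 10 barcodes in library 2, while Kcnj8 and Abcc9 were higher in the Stab2 or Plvap gate. Of 6 myelinating Schwann cell genes 6, 1 and 3 were seen against 4, 4 and 4, with sums of 546, 47.6 and 338 CPM against 59.9, 35.7 and 212 CPM. Arterial genes, 6, 7 and 6 of 7 against 6, 6 and 4, summed to 333, 619 and 537 CPM against 261, 159 and 59.9 CPM. Venous genes, 6, 3 and 6 of 6 against 5, 6 and 5, summed to 1305, 1263 and 909 CPM against 1607, 2604 and 2918 CPM. Of the venous genes, Vwf was higher in other endothelium, and Ackr1 and Lrg1 in the Stab2 or Plvap gate. Capillary genes went both ways, at 2175, 3526 and 1601 CPM against 3075, 5054 and 1116 CPM. Lymphatic genes, 2, 1 and 2 of 6 against 3, 3 and 3, summed to 139, 47.6 and 104 CPM against 444, 622 and 912 CPM. Of these, Reln, Ccl21a and Pdpn were at 0 in both gates, and Prox1 was in 19.5%, 15.4% and 35.0% of Stab2 or Plvap barcodes. Osteoblast genes summed to 102, 23.8 and 34.6 CPM against 510, 745 and 158 CPM. Stem or progenitor genes summed to 1175, 1382 and 1125 CPM against 413, 281 and 147 CPM.

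Blood lists did not share a direction. Myeloid progenitor genes, 4, 4 and 5 of 5 against 5, 5 and 5, summed to 750, 953 and 805 CPM in other endothelium against 495, 317 and 506 CPM. Of these sums Cd34, also in the stem or progenitor and leukocyte adhesion lists, made 592, 810 and 502 CPM against 302, 155 and 76.2 CPM. Without Cd34 the remainder was lower in other endothelium in every library. Monocyte genes, 3, 2 and 4 of 5 against 3, 4 and 5, summed to 592, 334 and 485 CPM against 139, 107 and 207 CPM. The 6 erythroid genes, of which 2, 3 and 3 had a UMI against 3, 6 and 6, were at 46.3, 2049 and 909 CPM against 63.0, 12331 and 12457 CPM. Neutrophil genes, 5, 4 and 4 of 6 against 5, 5 and 6, summed to 2601, 1739 and 3056 CPM against 4234, 1867 and 3430 CPM. Of 6 macrophage genes 1, 0 and 4 were seen against 4, 5 and 5, with sums of 9.26, 0 and 34.6 CPM against 696, 820 and 1037 CPM, of which Mrc1, also a gene of sinusoids, made 677, 789 and 953 CPM. The part of these genes in the results was not tested. Without library 2 the count of 8 was 9, Ocln being added, where 397 of 6448 genes passed. With the blood genes left out of the totals it was 8, where 239 of 7467 genes passed.

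Against other cell types, 7 of the 9 genes were at least 2-fold higher in other endothelium than in each of 18 other gates in every library, as were 5.91% of 2621 genes. Both counts take only genes with at least 20 UMIs in other endothelium, the side that had to be high. The 18 gates were drawn from marker lists, and their names mean a cell like that type. One of the 18, drawn with stem or progenitor markers, had none of them among its 10 leading genes and is not described. Pericytes, strial intermediate cells, middle ear epithelium and megakaryocytes had fewer than 20 barcodes in some library and are not among the 18. Tjp1 fell short of 2-fold, with lowest-library log2 ratios of 0.34 against fibrocytes or strial basal cells and 0.63 against fibroblasts. Ocln did not fall short, its lowest log2 ratio being 1.91, against smooth muscle with counts of 0 set to the floor. It was not called because its 3 UMIs in library 2 give no call where the other gate also has at most 3. The gate of 2 endothelial genes left 3 of the 9. The share of all genes under that gate was not counted for this comparison. Endothelial barcodes were 0.419% of all. They held 66.0% of the UMIs of Cldn5, 48.1% of Abcb1a, 32.3% of Spock2, 27.2% of Slco1a4 and 19.4% of Mfsd2a. Of Slc2a1 they held 9.30%, of Ocln 8.71%, of Tjp1 5.72% and of Slc7a5 4.30%. These shares leave out 58 of 205 barcodes that met the Cdh5 and 5-gene rule but had Ptprc. All 205 held 2250 of 2485 Cldn5 UMIs, 560 of 903 of Abcb1a, 676 of 1651 of Spock2 and 872 of 2475 of Slco1a4. They held 51 of 222 of Mfsd2a, 796 of 5831 of Slc2a1, 38 of 333 of Ocln, 658 of 6994 of Tjp1 and 480 of 9078 of Slc7a5.

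The gates next highest outside the endothelium are given here by the lowest, median and highest library. Tjp1 was at 281, 352 and 452 CPM in fibrocytes or strial basal cells and at 286, 321 and 368 CPM in fibroblasts, above its level in Stab2 or Plvap endothelium and below that in other endothelium. Slco1a4 was at 98.6, 113 and 135 CPM in fibrocytes or strial basal cells, in 218 of 499 barcodes, and at 81.0, 102 and 116 CPM in adipogenic stroma. Both levels were above those of Stab2 or Plvap endothelium in libraries 1 and 3.

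Mfsd2a was highest outside the endothelium in myelinating Schwann cells, at 38.2, 46.5 and 50.5 CPM in 37 of 215 barcodes. Slc7a5 reached 67.9, 169 and 175 CPM in strial intermediate cells or melanocytes, in 39 of 60 barcodes, and 54.5, 63.0 and 67.9 CPM in basophils or mast cells. Slc2a1 was at 22.5, 46.1 and 73.6 CPM in strial intermediate cells or melanocytes and at 38.1, 43.5 and 66.9 CPM in middle ear epithelium. Ocln was at 18.7, 43.9 and 44.3 CPM in middle ear epithelium, in 48 of 111 barcodes. A single barcode in the inner ear epithelium gate had 3 Ocln UMIs, or 195 CPM, above the level in other endothelium.

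Abcb1a was at 14.9, 21.5 and 26.7 CPM in fibroblasts, in T cells at 11.3, 19.7 and 25 CPM, in 57 of 550 barcodes, and in NK cells at 8.34, 14.5 and 19.0 CPM. Cldn5 was next highest in plasmacytoid dendritic cells, at 1.69, 3.89 and 23.6 CPM in 6 of 637 barcodes. Spock2 was at 48.5, 55.8 and 75.4 CPM in fibroblasts, in 188 of 795 barcodes, while its 76 UMIs in Schwann cells came from 6 of 215 barcodes. The 7916 neutrophils had median depths of 2771.5, 3286 and 4330.5 UMIs. Cldn5 was found in 16 of them, Abcb1a in 8, Spock2 in 8, Slco1a4 in 15, Mfsd2a in 7 and Ocln in 2. Slc2a1 was found in 953, Slc7a5 in 146 and Tjp1 in 42. In other endothelium Cldn5, Abcb1a and Spock2 were in 36, 34 and 32 of 40 barcodes. The part of RNA from other cells in these counts was not tested.

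**Figure D4:**
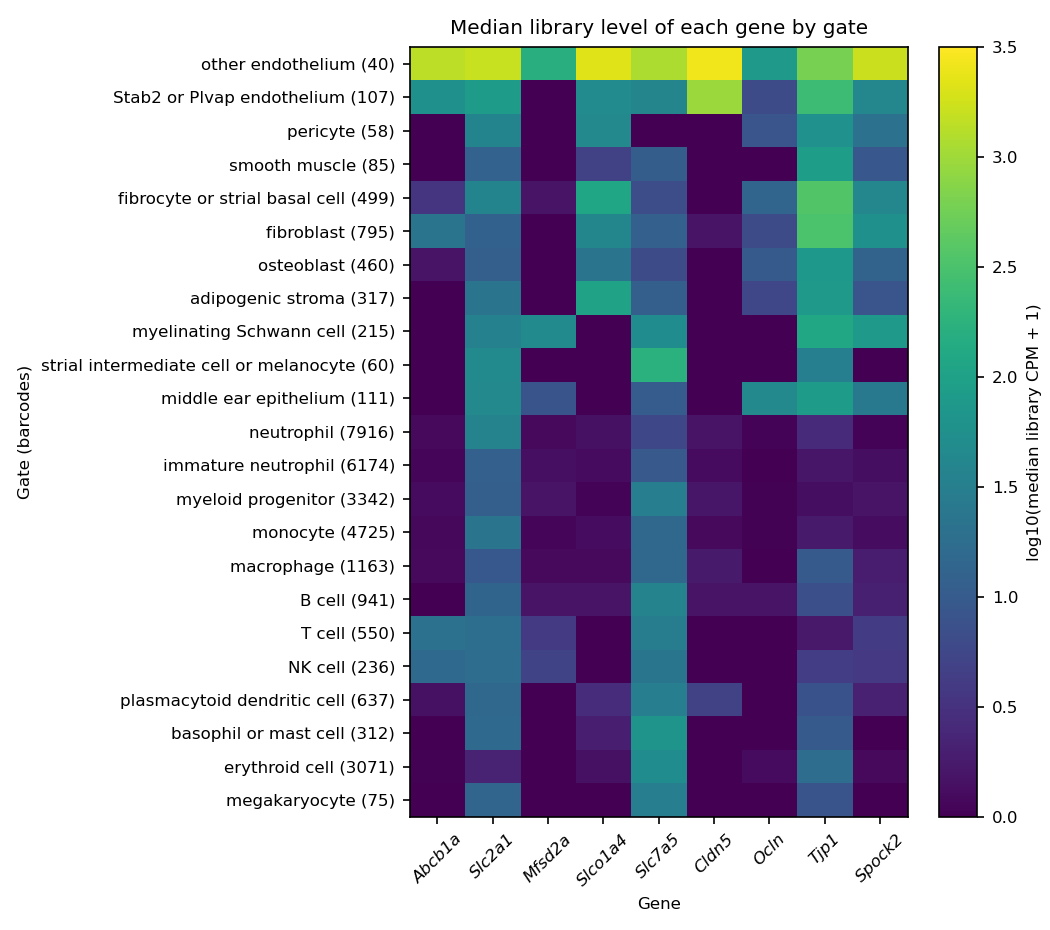
Median library level of each of the 9 genes, as log10(CPM + 1), in the 2 endothelial gates and in the other gates with at least 50 barcodes (number in brackets). The stem or progenitor gate is left out. The row of other endothelium is the brightest for every gene, and Tjp1, Slc7a5 and Slc2a1 also have signal in many other rows.

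Profiles over 23 gates and the 3 libraries (69 points that share libraries and depth, Pearson r of log2(CPM + 1), as a description) named the genes most like each of the 9. For Cldn5 they were Gm32688 (0.97), Sox17 (0.97) and Dll4 (0.96), for Slco1a4 Tmem204 (0.91), Foxf2 (0.90) and Emcn (0.90), and for Abcb1a Slc52a3 (0.88), Ly6c1 (0.82) and Tmem252 (0.81). Tjp1 was closest to Wwtr1 (0.93), Ptpn14 (0.92) and Timp3 (0.92), Ocln to Hmcn1 (0.85), Cyp2d22 (0.85) and Cyp26b1 (0.85), and Spock2 to Epha4 (0.84), Hmcn1 (0.84) and Sema3c (0.83). Mfsd2a was closest to Sgpp2 (0.84), Pllp (0.82) and Dnm3 (0.80), Slc2a1 to Col4a3bp (0.82), Acer2 (0.76) and Edn1 (0.75), and Slc7a5 to Slc7a1 (0.67), Vwf (0.64) and Egfl7 (0.64), the lowest values of the 9.

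The promoters of these genes are shown because the genes stood high together in other endothelium while their use elsewhere differed. RefSeq's table of promoters (build GRCm38.p6) held 8 of the 9, all but Slc7a5. The 250 bases before the start of transcription are printed 5′ to 3′ on the gene's strand for an efflux pump, a carrier and a pair of junction genes. Capitals mark matches, on either strand, to 4 short motifs: AACAAT (SOX), CTTTGA (TCF/LEF), ACAGGAA (ETS) and GGGCGG (GC box), and none of these windows holds matches of more than 1 of the motifs.
Abcb1a, chr5:8566841-8567090, plus strand: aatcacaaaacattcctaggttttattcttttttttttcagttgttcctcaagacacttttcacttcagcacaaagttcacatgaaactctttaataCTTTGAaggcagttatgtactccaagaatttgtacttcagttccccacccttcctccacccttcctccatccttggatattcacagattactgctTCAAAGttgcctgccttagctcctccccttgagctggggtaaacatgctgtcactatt
Slco1a4, chr6:141856221-141856470, minus strand: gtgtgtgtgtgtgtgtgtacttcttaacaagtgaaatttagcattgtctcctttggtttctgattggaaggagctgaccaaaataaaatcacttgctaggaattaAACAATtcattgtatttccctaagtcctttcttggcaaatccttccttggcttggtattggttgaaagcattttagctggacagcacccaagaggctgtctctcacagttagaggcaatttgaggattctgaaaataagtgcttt
Cldn5, chr16:18776597-18776846, plus strand: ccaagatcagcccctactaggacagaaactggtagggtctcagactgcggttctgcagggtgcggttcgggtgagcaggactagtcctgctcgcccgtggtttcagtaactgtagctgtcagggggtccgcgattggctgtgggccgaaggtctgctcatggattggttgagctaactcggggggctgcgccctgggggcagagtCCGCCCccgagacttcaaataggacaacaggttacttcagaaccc
Tjp1, chr7:65371245-65371494, minus strand: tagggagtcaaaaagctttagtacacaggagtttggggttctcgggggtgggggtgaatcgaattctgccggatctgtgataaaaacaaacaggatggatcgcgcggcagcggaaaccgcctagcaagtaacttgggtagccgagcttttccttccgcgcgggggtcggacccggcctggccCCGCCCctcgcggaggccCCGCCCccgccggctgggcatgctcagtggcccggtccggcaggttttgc
The Abcb1a window has 2 TCF/LEF matches and a GC content of 40.4%, and that of Slco1a4 has 1 SOX match and 39.2%. Cldn5 has 1 GC box and 59.6%, Tjp1 2 GC boxes and 63.2%. The Mfsd2a and Spock2 windows each hold 1 TCF/LEF match, that of Slc2a1 2 GC boxes and both windows of Ocln 1 GC box. Of 32851 windows of this length, 9.42% held the SOX motif, 13.8% the TCF/LEF motif, 7.20% the ETS motif and 32.7% the GC box. These matches are letters in a window and show no binding.

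Other genes of barrier vessels were taken from lists. Read against the 3.37% and 2.81% of all genes, of 9 junction genes with enough counts 2 were 2-fold higher in other endothelium in every library and none in the Stab2 or Plvap gate. They were Lsr, a protein of tricellular junctions, at 315, 167 and 260 CPM against 3.15, 7.93 and 0 CPM, and Jam2, an adhesion molecule, at 176, 262 and 208 CPM against 75.6, 51.5 and 21.8 CPM. Lsr reached the minimum of summed UMIs only through other endothelium, so it could pass in that direction only. Cdh5, which the gate itself used, stood at 611, 882 and 606 CPM in other endothelium against 835, 943 and 909 CPM. Of 3 efflux pumps only Abcg2 passed, with 916, 1310 and 1264 CPM against 451, 400 and 427 CPM.

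Of 14 further solute carriers, 5 were higher in other endothelium and none in the Stab2 or Plvap gate: Slc39a10, Slc16a1, Slc16a4, Slc7a1 and Slc3a2. Among them Slc16a4 reached the minimum of summed UMIs only through other endothelium, so it could pass in that direction only. The cationic amino acid carrier Slc7a1 was at 518, 453 and 511 CPM against 18.9, 47.6 and 35.4 CPM. Of 15 genes of the Wnt barrier program, the signalling that induces barrier traits, 7 were higher in other endothelium (Sox17, Lef1, Reck, Axin2, Foxq1, Foxf2, Apcdd1) and the receptor Lrp5 was higher in the Stab2 or Plvap gate. All of those higher in other endothelium except Sox17 reached the minimum of summed UMIs only through other endothelium. Lrp5 reached it only through the Stab2 or Plvap gate. Apart from Sox17, each could thus pass only in the direction in which it was called. Lef1, a transcription factor of the pathway, stood at 491, 262 and 615 CPM against 18.9, 23.8 and 10.9 CPM.

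Of 8 genes of transcytosis, the passage that Mfsd2a is known to restrain, none was higher in other endothelium and 2, Fcgrt and Insr, were higher in the Stab2 or Plvap gate, although the median of the list lies on the side of other endothelium. The caveolar gene Cavin1 was at 574, 715 and 234 CPM in other endothelium and 233, 210 and 120 CPM in the Stab2 or Plvap gate, short of 2-fold in library 3. Of 6 leukocyte adhesion genes, Sele, Selp, Vcam1 and Icam1 were higher in the Stab2 or Plvap gate, as were 9 of 11 genes of sinusoids and fenestrated vessels and 1 of 10 basement membrane genes, Nid1. Sele, Selp, Nid1 and the sinusoid genes Mrc1, Cd36, Gpm6a, Stab1, Gpihbp1 and Ehd3 reached the minimum of summed UMIs only through that gate. They could thus pass in that direction only. The median log2 ratio was 0.89 over the junction list, 2.03 over the solute carriers, 2.59 over the Wnt list, 0.85 over the transcytosis list, -3.69 over the sinusoid list and 4.35 over the 9 genes.

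**Figure D5:**
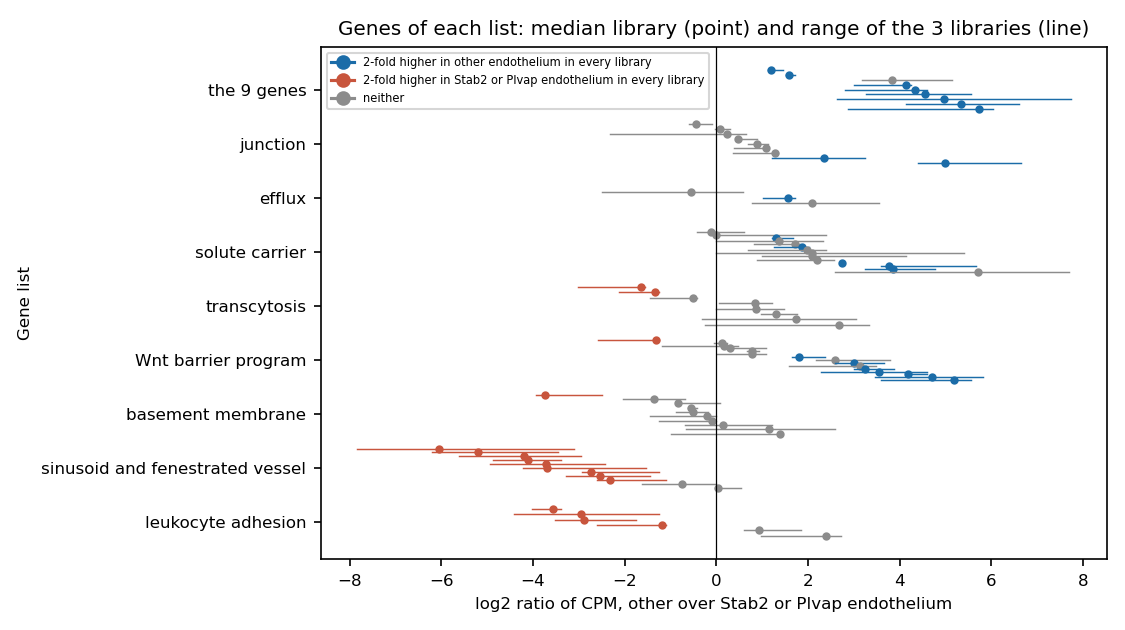
Log2 ratio of CPM, other over Stab2 or Plvap endothelium, for the genes of each list with at least 20 summed UMIs: points are the median library and lines the range of the 3 libraries. Blue and red mark genes at least 2-fold apart in every library. Of the 9 genes 8 are blue, as are 7 of 15 Wnt genes, and 9 of 11 sinusoid genes are red. A gene that reached the 20 UMIs only through the higher gate could pass in that direction only.

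The genes with the largest ratio in their lowest library, among those with at least 50 summed UMIs, were Sema3c, Tgfb2, Cyp26b1, Lsr, Apcdd1, Prom1, Spock2, Itm2a, Ptn and Arap2, Spock2 being the only one of the 9 among them. In the other direction they included Adamts5, Ugcg, Serping1, Gm1673, Tspan7, Lgmn, Plvap, Ubd and Igfbp5, of which Plvap defined the gate.

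Across libraries, some counting intervals of other endothelium lay apart for Cldn5, Slc2a1 and Slco1a4. The share of all genes for which they do was not counted, so it is not known whether these genes stand out. The intervals also leave out variation between barcodes. Cldn5 was higher in library 1 (3304 to 4035 CPM) than in library 2 (1533 to 2399 CPM) or library 3 (2385 to 2990 CPM), Slc2a1 was lower in library 2 than in the others, and Slco1a4 was higher in library 1 (2210 to 2816 CPM) than in library 2 (1321 to 2134 CPM). These are 10 to 16 barcodes per library with no replicate library, and no label says which library had which exposure.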

How the data were processed

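The authors deposited UMI counts per gene and barcode, as 1 table of 32285 genes and 39092 barcodes, written by Cell Ranger 7.1.0 per the file headers, on GRCm39 per the submitters' processing notes. Of cell calling and pooling nothing is given in the sources used here. Barcodes with at least 500 UMIs, 200 genes and at most 20% mitochondrial UMIs were kept (37188), and doublets called by scrublet in scanpy 1.11.5 (7.16%, 4.21% and 4.78%) were left out.

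The 9 genes, gene lists and markers were chosen with earlier results of these data known. The endothelial gate set at the start asked for 2 of 9 other pan-endothelial genes. After all 9 genes' values under it had been seen, and barcode numbers at 4, 5 and 6, it was raised to 5. Gates of 3, 4, 6 and 7 were added later. Other types are named by the highest mean z of their markers (at least 3 markers and 50% of the list detected, mean z at least 0.8), a rule also set after the files were seen. No gate uses any of the 9 genes.

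Raw UMIs were summed per gate and library and divided by the gate's total (CPM), with exact Poisson intervals, and ratios with conditional exact intervals. A count of 0 was set to 3 counts, without letting this turn a ratio's sign. "Higher" means at least 2-fold in every library among genes with 20 UMIs summed over both endothelial gates. Against the other cell types, the 20 UMIs were counted in other endothelium alone. A library where both counts are at most 3 gives no call. Genes named outside the 9 are those at the ends of each list, the 10 at either end of the table with at least 50 summed UMIs (1 is not reported here), the 3 of most similar profile, and all called list genes; the last group, Lef1 and Slc3a2 in detail, the examples of the gate of 2 genes and Coch, Rgs5 and Hbb-bs were added after values were seen. The ratio step was tested on simulated data. Counts were handled with pandas 2.3.3 and numpy 2.4.6 under Python 3.11.15, intervals came from scipy 1.17.1, and edgeR 4.0.16 in R 4.3.3 gave only the TMM factors. The alternatives in the closing section were 13 set at the start, counting the gate of 2 genes, and 7 chosen after seeing the data.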

Additional observations from a re-analysis of the deposited data

How the results depend on the processing

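The count of 8 of the 9 genes higher in other endothelium depends on the endothelial gate. It was 1 with Cdh5 alone, 1 with 2 other pan-endothelial genes (the number set at the start) and 3 with 3, and 7, 8 and 8 with 4, 6 and 7. It was 5 with each barcode thinned to 2000 UMIs, where Mfsd2a, Cldn5 and Tjp1 were lost and 2125 genes had enough counts. TMM scaling and the mean over barcodes gave 7, leaving out a library gave 8 to 9, and every other alternative gave 8, though keeping Ptprc barcodes brought Ocln in and left Cldn5 out. The count of genes higher in the Stab2 or Plvap gate was 1 (Cldn5) with Cdh5 alone and 0 under every other alternative. The count above all other cell types, 7, was 1 with Cdh5 alone, 3 with 2 genes, 5 with 3 and 6 to 8 otherwise. For it, the share of all genes was counted under the main setting only. Cldn5 reversed to a log2 ratio of -2.21 with Cdh5 alone, -1.15 with 2 genes and -0.11 with 3. Of 180 ratios of single genes under 20 alternatives, 175 were above 0, 31 moved beyond the counting interval and 3 reversed.

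Over the 7467 genes tested, 252 were higher in other endothelium and 210 in the Stab2 or Plvap gate. TMM factors gave 190 and 327, shifting the log2 ratio of every gene by -0.08, -0.42 and -0.13 in libraries 1, 2 and 3. Cdh5 alone gave 645 and 712 of 13434 genes tested, and 2 genes gave 630 and 717 of 10793. With 3 genes they were 460 and 594 of 9619, and with 4 genes 272 and 383 of 8136. Thinning gave 37 and 40 of 2125, and the mean over barcodes 185 and 246 of 7351. Leaving out a library gave 312 to 397 and 304 to 498 of 5804 to 6448 genes tested, the highest of both without library 2. The remaining alternatives gave 236 to 289 and 206 to 289 of 7022 to 14826 genes tested. The cause was not tested beyond the numbers of barcodes and genes given.

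The ratios of the endothelial gates are each taken within a library, which pairs the gates and needs no group label. No paired test was made on them, because 3 libraries of unlike exposure were not treated as replicates. Groups were not compared, because no label ties a library to a group. With 10 to 16 other endothelial barcodes per library, Ocln and Mfsd2a are limited by depth: with 0 to 3 UMIs per library in the Stab2 or Plvap gate, the intervals of their ratios span more than 10-fold or have no upper end.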
